A study of Rattus norvegicus with 8 samples.

Results

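The UDP-glucuronosyltransferases (Ugt genes) and cytosolic sulfotransferases (Sult genes), together with the enzymes that make their cofactors (Ugdh, Papss1 and Papss2), were represented by 35 of the 30367 probes on a rat array. They were chosen by name, as the probes whose gene name in the deposited array files begins with Ugt1, Ugt2, Ugt3, Ugt8 or Sult or is that of a cofactor enzyme, and they stand for 29 genes. Of these genes, 19 could be tested, having a probe well above background in 4 or more of 8 samples. The livers came from Wistar rats aged 21 days. The 4 control animals (1 male and 3 females) were born to dams on standard food, and the 4 deficient animals (2 males and 2 females) to dams whose food lacked vitamin B12 and folates. Both diets ran from 1 month before pregnancy to weaning, so the pups were exposed through the dam. The sources used here do not give each pup's dam or litter. The sample titles carry codes of unstated meaning, a letter and a number, in which controls 1 to 3 have 1 letter in common and deficient 2 and 4 another, so some animals may be littermates, and the p-values measure no more than the spread between the animals of a group.

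Glucuronidation and sulfation are the main conjugation reactions of the liver, and they make bilirubin, bile acids, steroid and thyroid hormones, drugs and plant phenols more soluble in water and easier to export. A Ugt enzyme, held in the endoplasmic reticulum, transfers glucuronic acid from UDP-glucuronate, which Ugdh makes by oxidising UDP-glucose. A Sult enzyme, in the cytosol, transfers sulfate from PAPS, which the Papss enzymes make from ATP and inorganic sulfate. Enzymes of both families arose by gene duplication and overlap in the compounds they take.

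Because the families are made of close copies, the sequences that the array reads are shown first. Each probe is 60 bases long, positions are those of rn4 in the files, and letters run 5′ to 3′. Among 589 pairs of probes for different member genes, the longest run of identical letters was 14 bases and the median of the longest runs was 6. Only 1 pair shared a run of 12 or more. That pair was Ugt2b5 (chr14:22366563-22366622) and Ugt2b (chr14:22177431-22177490), whose probes were identical at 28 of 34 aligned bases (82.4%), shown in capitals.
Ugt2b5: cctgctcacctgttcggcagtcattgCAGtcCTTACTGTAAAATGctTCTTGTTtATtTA
Ugt2b: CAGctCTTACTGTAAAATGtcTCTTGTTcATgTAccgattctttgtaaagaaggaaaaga
The probes of the hydroxysteroid sulfotransferases Sult2a1 (chr1:75632843-75646550) and Sult2al1 (chr1:74554002-74555601, Sult2a6 in RefSeq) both span an intron, as their intervals are longer than the probes. They were identical at 35 of 52 aligned bases (67.3%), again in capitals, with no shared run longer than 7 bases.
Sult2a1: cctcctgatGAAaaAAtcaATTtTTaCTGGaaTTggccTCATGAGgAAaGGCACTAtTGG
Sult2al1: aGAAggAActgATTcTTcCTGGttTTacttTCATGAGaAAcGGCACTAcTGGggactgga
Probes of 5 other members on which the results turn are given in lower case throughout. They read Ugt2a3 (chr14:22116723-22116782), Ugt2b36 (chr14:22478931-22480029, spanning an intron, Ugt2b35 in RefSeq), Ugt1a9 (chr9:86987459-86987518), Ugt1a6 (chr9:87097621-87097680) and Ugdh (chr14:45570166-45570225).
Ugt2a3: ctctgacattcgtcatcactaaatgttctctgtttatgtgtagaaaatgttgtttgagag
Ugt2b36: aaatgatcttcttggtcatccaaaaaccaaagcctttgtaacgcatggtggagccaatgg
Ugt1a9: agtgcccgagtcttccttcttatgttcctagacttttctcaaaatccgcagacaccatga
Ugt1a6: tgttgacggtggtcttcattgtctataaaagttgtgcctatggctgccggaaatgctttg
Ugdh: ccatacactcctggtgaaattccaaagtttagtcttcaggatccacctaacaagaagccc
The Ugt1a6 probe is listed in the files with transcripts of Ugt1a5, Ugt1a6 and Ugt1a7c, since the enzymes of the Ugt1a locus have first exons of their own and share the later ones. Its values therefore belong to several enzymes of that locus.

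Each of the 4 arrays carried 1 control and 1 deficient animal in different dyes. Median spot signals were 152.5 to 299 over local backgrounds of 33 to 58, with 59.1% to 65.5% of spots well above background; precision is limited by having only 4 arrays. Levels below are log2 normalised intensities, changes are log2 differences (deficient minus control) ± SE as fitted over 4 animals a group, and a gene is called where limma's adjusted p over all genes is under 0.05. All 10 hepatocyte genes of the marker list were measured, and 7 of them fell (Fgb, Ambp, Tf, Apoc3, Ttr, Serpina1 and Ttpa). Of all genes, 6.56% fell. Alb (-1.01), Hpx (-0.13) and Apoa1 (0.35) were not called, and Apoa1 went the other way. Summed levels here are the log2 of the added intensities of a list's measured genes, so the brightest weigh most. For all 10 hepatocyte genes the summed level was 20.12 to 20.67 in deficient against 20.85 to 21.11 in control animals. Array 1, which pairs control 1 with deficient 3, had a median change of 2.22 over the 5 measured of 16 skeletal muscle genes, against 0.07 to 0.24 on the other arrays. The only called muscle gene, Tnnc2 (fast troponin C), rose on every array, by 2.57 to 3.12, from a mean of 7.89 to 10.74 (limma adjusted p = 0.000461). Acta1, Tnni2, Mb and Myoz1 had ratios of 1.01 to 2.79 on array 1 and of -0.30 to 0.34 on the others. Summed levels of the 5 muscle genes, Tnnc2 included, were 9.97 to 10.37 in control and 11.00 to 12.96 in deficient animals. The enterocyte list (4 of 8 measured, 1 of them, Fabp2, higher) was at 12.84 to 13.49 in deficient and 12.38 to 12.64 in control animals. Its other genes were not called, Mttp at 0.15, Alpi at -0.13 and Lct at -0.07. The neutrophil list (7 of 9 measured, 5 lower) was at 10.78 to 11.26 against 11.35 to 12.09. There Lcn2 (0.45) and Mpo (0.06) went the other way and were not called. The lists above are those whose summed levels did not overlap between the groups. Summed levels of kidney tubule, cholangiocyte, Kupffer, endothelial, stellate and erythroid genes overlapped. In those lists only Slc12a3 of kidney tubule (0.58, well above background in 0 controls) and Lrat of stellate cells (-0.67) were called. What part these shifts have in the changes below was not tested, and in whole liver fewer cells of a type cannot be told apart from less RNA in each cell.

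The question was whether the dam's diet changed the expression of conjugating enzymes in the liver of her pups. Sult1b1 and Ugt2a3 rose, while Sult2al1, Sult1c2a, Ugt2b36, Ugt1a9 and Ugdh fell. Thus 7 of the 19 measured members (36.8%) were called, where 11.1% of all 14873 genes tested were. For rises the counts were 2 members against a background of 4.52%, and for falls 5 members against 6.56%. The other 12 members were not called, although 11 of the 19 had an unadjusted p under 0.05, as had 27.7% of all genes. On all 4 arrays 7 members moved in 1 direction, as did 27.3% of all genes. The median change was -0.25 over the members and 0.01 over all genes, and the median size of change 0.42 against 0.14. With the animals paired on their arrays (log2 ratios within each array, limma), both rises were still called (adjusted p = 0.0451 for Sult1b1 and 0.0434 for Ugt2a3) and none of the 5 falls was (adjusted p = 0.0745 to 0.142, with the same changes), where 467 genes were called in all. Without array 1 all 7 members were still called, whereas without array 3 none of them was, at a setting where 208 genes were called in all. With females only (3 controls and 2 deficient), 41 genes were called in all and no member among them.

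**Figure D1:**
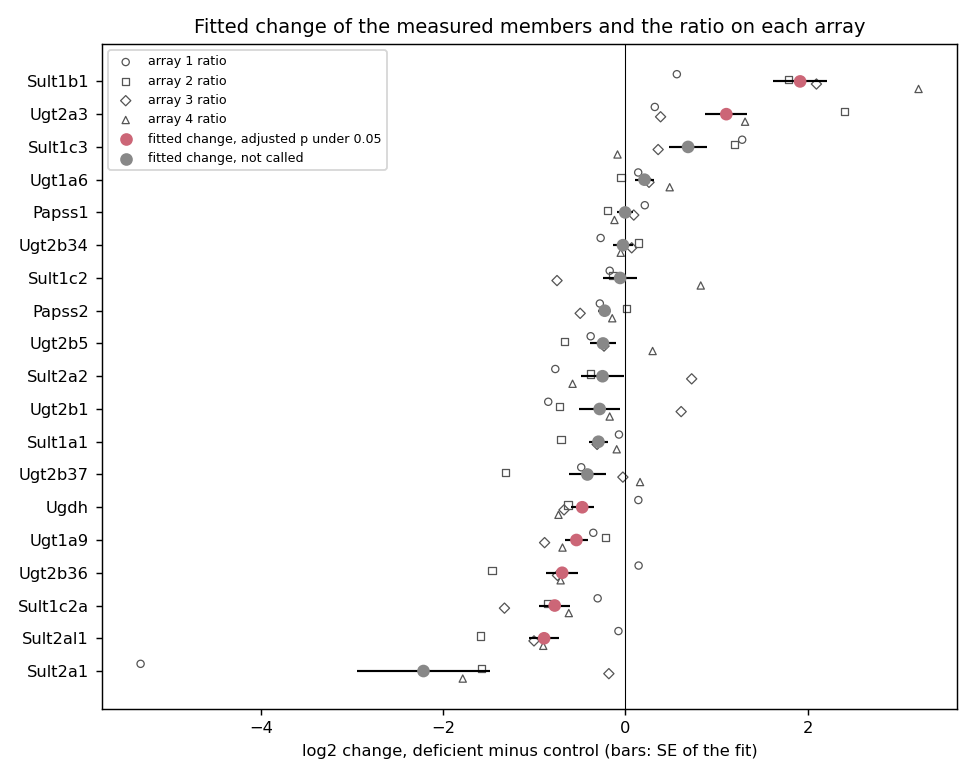
Fitted log2 change (x axis, deficient minus control) of the 19 measured member genes (y axis, ordered by change), with bars for its SE, red for adjusted p under 0.05 and grey for the rest, and open symbols for the ratio on each of the 4 arrays. Sult1b1 and Ugt2a3 lie right of 0 on all arrays, most called falls sit nearest 0 or right of it on array 1, and Sult2a1 has the widest scatter, from -5.32 to -0.18.

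Among the enzymes that supply the cofactors, the UDP-glucose dehydrogenase Ugdh fell and neither PAPS synthase was called. Ugdh stood at 10.44, 10.80, 10.66 and 10.61 in controls 1 to 4 and at 10.03, 9.88, 10.58 and 10.13 in deficient animals 1 to 4. Deficient 3 lay within the control range and the other deficient animals lay below all controls. The change was -0.47 ± 0.13 (limma adjusted p = 0.0468), negative on 3 of 4 arrays, with 0.14 on array 1. It was the least stable of the calls: leaving out 1 animal or 1 array ended it in 10 of 12 cases, all but those without deficient 3 and without array 1, where it was -0.63 and -0.68. Papss2, the main PAPS synthase of liver, changed by -0.23 ± 0.07 (adjusted p = 0.0822), and its second probe gave -0.30. Papss1 was at -0.00 ± 0.09 (adjusted p = 0.990).

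Of the measured Ugt1a genes, Ugt1a9 fell and the Ugt1a6 probe did not pass the test. The Ugt1a9 probe was dim, though well above background in all 8 samples. Its means were 7.652 in control and 7.115 in deficient animals. Member probes above background in no sample had group means of 6.08 to 6.72. Ugt1a9 stood at 7.30, 7.97, 7.65 and 7.70 in controls 1 to 4 and at 7.42, 7.01, 6.94 and 7.08 in deficient animals 1 to 4. Control 1 overlapped the deficient animals, and deficient 1 lay above it. The change was -0.54 ± 0.13 (limma adjusted p = 0.0345), negative on all 4 arrays. The call ended without control 2, 3 or 4, deficient 3 or 4, or array 3 or 4, with changes of -0.40 to -0.56 in those fits. The Ugt1a6 probe, listed with transcripts of Ugt1a5, Ugt1a6 and Ugt1a7c, changed by 0.21 ± 0.10 (adjusted p = 0.218). Whether it also reads Ugt1a9 or other enzymes of the locus, through the shared exons, was not looked up. A second Ugt1a6 probe had outlier spots in control 4 and deficient 2 and was not tested. Its other values were 15.82, 15.81 and 15.63 in controls 1 to 3 and 16.21, 15.58 and 15.92 in deficient animals 1, 3 and 4, which overlap.

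Ugt2a3, the only measured Ugt2a gene, rose 2.16-fold. It stood at 8.42, 9.15, 8.46 and 8.29 in controls 1 to 4 and at 10.87, 9.60, 8.74 and 9.54 in deficient animals 1 to 4. Deficient 3 lay below control 2, and the remaining deficient animals lay above all controls. The change was 1.11 ± 0.23 (limma adjusted p = 0.0202), positive on all 4 arrays and between 0.32 on array 1 and 2.41 on array 2. Leaving out control 1, 2 or 3, deficient 4 or array 3 ended the call, with changes of 0.96 to 1.15. Ugt2a1, known from the olfactory epithelium, was not well above background in any sample.

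None of the 5 measured Ugt2b enzymes, which conjugate steroids, bile acids and many drugs, rose, and 1 of them fell. Ugt2b36 stood at 14.47, 14.88, 14.90 and 15.07 in controls 1 to 4 and at 13.43, 14.36, 14.62 and 14.14 in deficient animals 1 to 4. Deficient 3 alone was above the lowest control. Its change was -0.69 ± 0.18 (limma adjusted p = 0.0416), with 0.15 on array 1 and -0.71 to -1.46 on the other arrays. It was the next least stable after Ugdh, since leaving out any 1 control, deficient 1 or 4, or array 2 or 3 ended the call (-0.47 to -0.81).

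The remaining Ugt2b genes were not called. Ugt2b37 stood at 14.30, 14.12, 14.49 and 14.02 in controls 1 to 4 and at 13.18, 14.18, 13.82 and 14.09 in deficient animals 1 to 4, a change of -0.42 ± 0.20 (limma adjusted p = 0.223). The groups overlapped, with deficient 1 lowest. Without deficient 2 or without array 4 it was called, at -0.69 and -0.79. Ugt2b1, which takes testosterone and morphine, stood at 14.08, 13.42, 14.61 and 13.83 in controls and at 13.89, 13.66, 13.23 and 14.04 in deficient animals, -0.28 ± 0.22 (adjusted p = 0.454). Ugt2b5 (Ugt2b15 in RefSeq) changed by -0.25 ± 0.14 (adjusted p = 0.288), and was called only without deficient 2 (-0.40) or without array 4 (-0.49). Ugt2b34 (Ugt2b10 in RefSeq) changed by -0.03 ± 0.11 (adjusted p = 0.896).

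A second Ugt2b37 probe split the animals within each group. It stood at 10.74, 8.25, 10.92 and 7.78 in controls 1 to 4 and at 8.07, 10.05, 7.57 and 10.05 in deficient animals 1 to 4. Thus 4 animals, 2 of each group, lay between 7.57 and 8.25 and the other 4 between 10.05 and 10.92. Every array held 1 high and 1 low animal, and each level occurred in both dyes. The low animals were all female. The high animals were the males, control 1 and deficient 2 and 4, and a female, control 3. The relation to sex was not tested. The gap of 1.80 between the 4 lower and the 4 higher animals was matched or exceeded by 3 of 16662 measured probes, this one included (0.018%). On the brightest probe of the gene the same animals lay at 13.18 to 14.12 and at 14.09 to 14.49, ranges that meet only in control 2 and deficient 4, and the probe's sequence is not matched to a RefSeq transcript here.

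Of the phenol and thyroid hormone sulfotransferases of the Sult1 family, Sult1b1 rose, Sult1c2a fell and 3 were not called. Sult1b1, which sulfates thyroid hormones and small phenols, stood at 12.41, 12.35, 12.51 and 11.29 in controls 1 to 4 and at 14.31, 14.51, 12.97 and 14.44 in deficient animals 1 to 4. All deficient animals lay above all controls, with control 4 apart at the bottom of its group and deficient 3 at the bottom of the other. Its 3.78-fold rise was the largest called change among the members, 1.92 ± 0.29 (limma adjusted p = 0.00648), and was seen on every array (0.56 to 3.22, lowest on array 1). A second probe, with 50 bases in common with the first, gave 1.93. Of the leave-out fits only that without array 3 ended the call (1.54, adjusted p = 0.0705).

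Sult1c2a, of a subfamily known in rat liver for sulfating N-hydroxy arylamides, stood at 11.47, 11.87, 11.43 and 11.09 in controls 1 to 4 and at 10.58, 10.47, 11.16 and 10.54 in deficient animals 1 to 4. Deficient 3 was just above control 4, and the other deficient animals were below every control. The change was -0.78 ± 0.17 (limma adjusted p = 0.0230), negative on all 4 arrays. A second probe gave -0.49 ± 0.14 (adjusted p = 0.0601), which was not called. Leaving out control 1, 2 or 3, deficient 1 or 4, or array 2 or 3 ended the call, with changes of -0.52 to -0.86.

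Sult1c3 stood at 12.03, 12.18, 11.89 and 12.53 in controls 1 to 4 and at 13.09, 12.44, 13.31 and 12.54 in deficient animals 1 to 4. The groups overlapped only through control 4 and deficient 2, and the change of 0.69 ± 0.21 missed the threshold (limma adjusted p = 0.0671). It was called without control 4 (0.89), without deficient 2 (0.92) and without array 4, which carries both (1.01). Sult1a1, the main phenol sulfotransferase, stood at 15.34, 15.31, 15.55 and 15.37 in controls and at 14.85, 15.28, 15.27 and 15 in deficient animals. Every deficient animal was below every control, deficient 2 and 3 only narrowly, and the change of -0.30 ± 0.11 was not called (adjusted p = 0.111). Groups that did not overlap were found for 3 members (Sult1b1, Sult2al1 and Sult1a1) and for 11.3% of all genes. Without deficient 2 or array 4 Sult1a1 was called, at -0.42 and -0.45. Sult1c2 changed by -0.06 ± 0.18 (adjusted p = 0.868).

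The Sult2 enzymes, which sulfate bile acids, dehydroepiandrosterone and other hydroxysteroids, had lower means in the deficient group, and 1 of the 3 measured was called. Sult2al1 stood at 17.27, 17.62, 17.78 and 17.73 in controls 1 to 4 and at 16.19, 16.83, 17.20 and 16.61 in deficient animals 1 to 4. All deficient animals were below all controls, deficient 3 only narrowly. The change was -0.89 ± 0.16 (limma adjusted p = 0.0116), from -0.08 on array 1 to -1.59 on array 2, and no spot was saturated. The call ended without control 2 or 3, deficient 4, or array 2 or 3 (-0.66 to -0.84).

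Sult2a1 had the largest difference of means of any member and was not called. It stood at 14.61, 13.08, 12.68 and 11.40 in controls 1 to 4 and at 11.10, 9.62, 9.29 and 12.90 in deficient animals 1 to 4. Deficient 4 lay among the controls and the other deficient animals lay below control 4, the lowest control. The change was -2.22 ± 0.73 (limma adjusted p = 0.0879), negative on all arrays but between -5.32 on array 1 and -0.18 on array 3. Its SD within groups was 1.5, at the 99.96th percentile of all genes tested. Without deficient 4 it was called at -3.31 (adjusted p = 0.00670) and without array 3 at -3.50 (adjusted p = 0.0125), whereas without array 1 it was -0.93 and not called. With sex as a term it was called at -2.66 (adjusted p = 0.0462). In rats this enzyme is known to differ between the sexes in adulthood. The males were control 1 (14.61, the highest control), deficient 2 (9.62, below every control) and deficient 4 (12.90, the highest deficient animal). Sult2a2 stood at 7.97, 7.37, 7.57 and 7.20 in controls and at 7.18, 6.62, 7.20 and 8.10 in deficient animals, -0.25 ± 0.24 (adjusted p = 0.534), and was well above background in 7 samples.

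**Figure D2:**
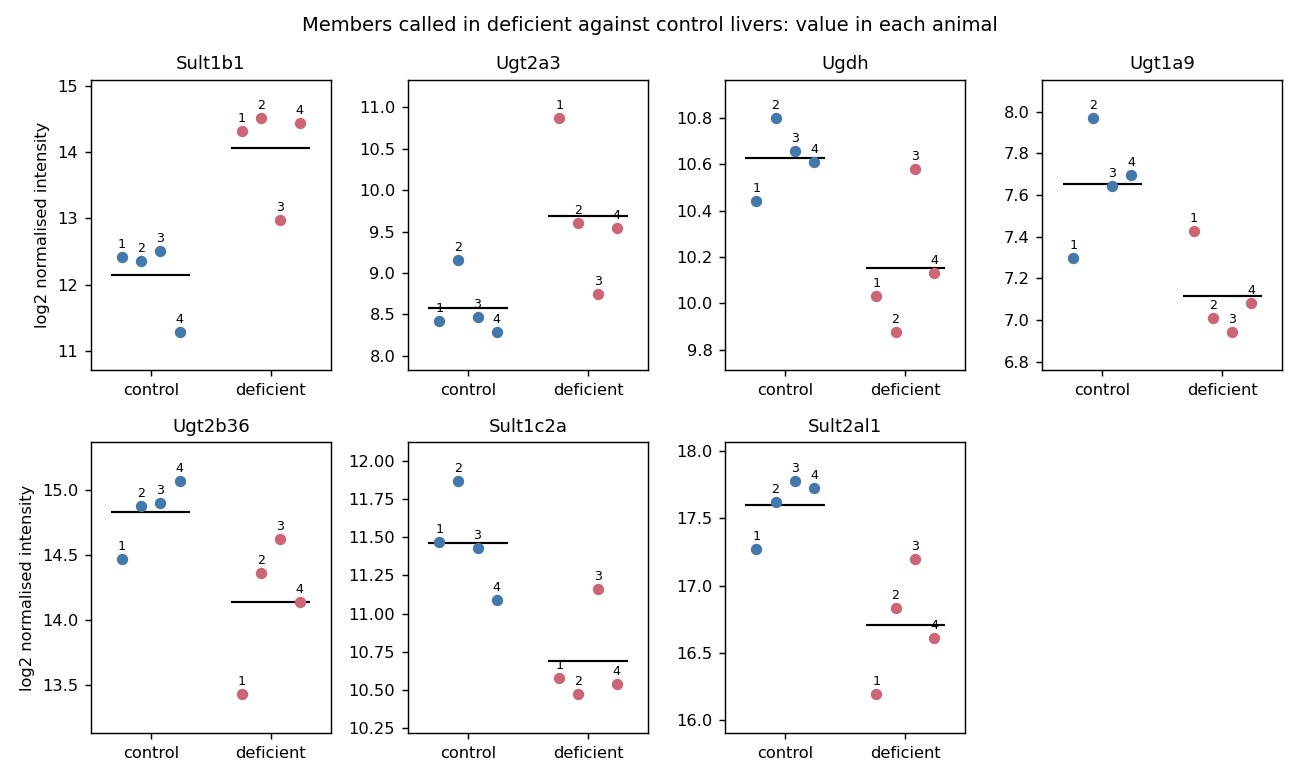
Log2 normalised intensity (y axis, scaled for each gene) of the 7 called members in each of the 4 control (blue) and 4 deficient (red) animals, numbered by replicate, with bars at the group means. Sult1b1 and Sult2al1 show no overlap between groups. In every called member but Ugt1a9, rises and falls alike, deficient 3 is the deficient animal nearest the controls or within their range.

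**Figure D3:**
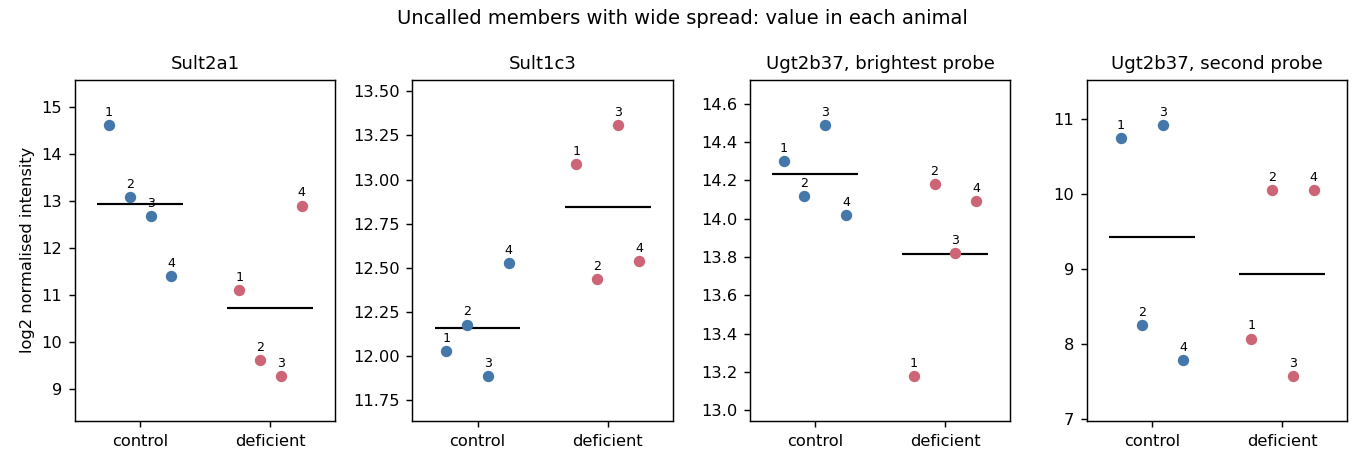
Log2 normalised intensity (y axis, scaled for each panel) of Sult2a1, Sult1c3 and both Ugt2b37 probes, all uncalled, in each control (blue) and deficient (red) animal, numbered by replicate, with bars at the group means. Sult2a1 runs from 9.29 to 14.61, and the second Ugt2b37 probe has 4 animals between 7.57 and 8.25 and 4 between 10.05 and 10.92.

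The other 10 genes on the array had no probe well above background in any sample. They were Sult1d1, Sult2b1, Sult4a1, Sult5a1, Sult6b1, Ugt2a1, Ugt2b, Ugt2b7, Ugt3a2 and Ugt8. Several are known from other tissues, such as Sult4a1 from brain, Sult2b1, a cholesterol sulfotransferase, from skin, and Ugt8, which makes the galactosylceramide of myelin. For these genes no difference was measured.

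The Ugt2 genes lie with Sult1b1 and Sult1d1 in 1 stretch of chromosome 14 (rn4). Along it the probes run from Sult1d1 at -29.9 kb from the Sult1b1 probe through Ugt2a1 at 36.8 kb, Ugt2a3 at 84.9 kb and Ugt2b at 145.6 kb to Ugt2b5 at 334.7 kb and Ugt2b34 at 711.4 kb. Both rising members, Sult1b1 and Ugt2a3, were the first 2 measured genes in this order. The 5 measured Ugt2b genes further on had changes of -0.03 to -0.69. The probes of Sult1d1, Ugt2a1, Ugt2b and Ugt2b7, which lie between or beside them, were not above background, so the order rests on 7 measured genes.

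**Figure D4:**
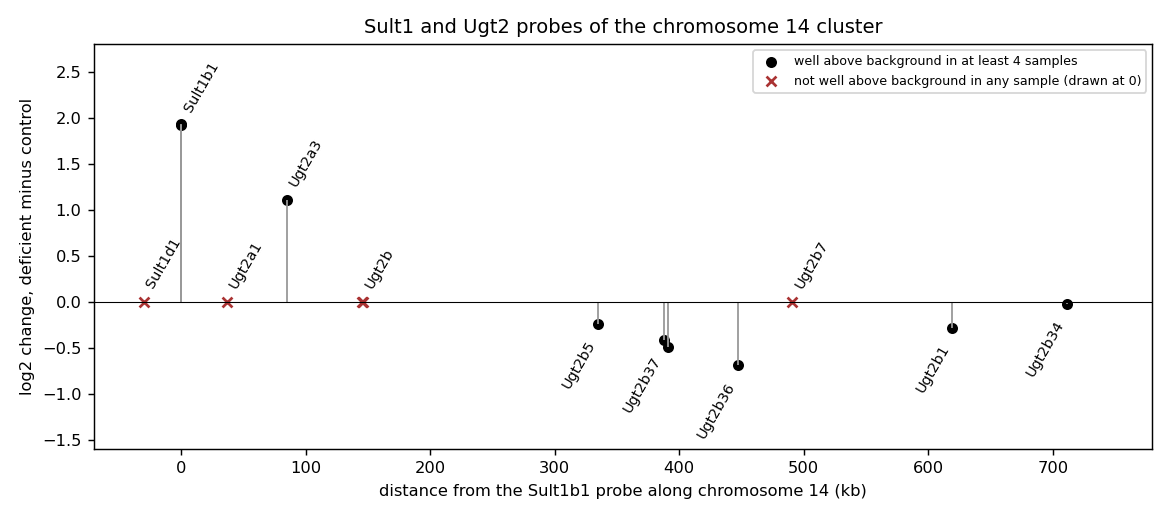
Log2 change (y axis, deficient minus control) of the Sult1 and Ugt2 probes on chromosome 14 against their distance from the Sult1b1 probe in kb (x axis), with dots for measured probes and crosses at 0 for probes not well above background. The 2 measured genes within 84.9 kb lie above 0 and the measured Ugt2b probes from 334.7 kb on lie below 0.

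Promoter windows of 250 bases before the RefSeq start (GRCr8) were found for 24 of the 29 genes and searched on both strands for 5 short motifs. The TATA box TATAAA was in 8 of the 24 windows (33.3%, against 12.9% of 33469 promoters), and the HNF1 motif GTTAAT, bound by a factor of liver genes, in 4 (16.7% against 6.45%). Among the 8 were Sult2a1, Sult2al1 and Sult2a2, whose windows resembled each other and were counted separately (Sult2a1 and Sult2al1 are compared below). Sult2al1 and Sult2a2 were also among the 4 with GTTAAT, in the same stretch of sequence. The counts are therefore not independent of each other. The nuclear receptor motif AGGTCA was in 3 (12.5% against 14.1%), among them the similar windows of Ugt2b5 and Ugt2b37. The Ah receptor core GCGTG was in 4 (16.7% against 25.9%). The antioxidant response core TGACNNNGC was in 1, Ugdh, where it overlaps a GCGTG match (4.17% against 10.1%). Windows of the neighbouring risers Sult1b1 (chr14:20771667-20771916, plus strand) and Ugt2a3 (chr14:20851720-20851969, plus strand) are shown because both genes moved the same way. Capitals mark motif matches.
Sult1b1: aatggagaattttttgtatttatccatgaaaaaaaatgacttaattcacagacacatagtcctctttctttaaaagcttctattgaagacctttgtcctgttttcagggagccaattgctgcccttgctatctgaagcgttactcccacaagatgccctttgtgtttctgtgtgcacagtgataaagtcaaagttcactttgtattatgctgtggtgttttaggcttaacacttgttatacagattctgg
Ugt2a3: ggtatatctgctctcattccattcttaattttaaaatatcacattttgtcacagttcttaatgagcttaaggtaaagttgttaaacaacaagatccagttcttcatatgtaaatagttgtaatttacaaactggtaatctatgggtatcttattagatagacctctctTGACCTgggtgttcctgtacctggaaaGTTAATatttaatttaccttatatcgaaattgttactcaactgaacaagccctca
The Sult1b1 window held none of the 5 motifs, and that of Ugt2a3 held 1 AGGTCA on the reverse strand and 1 GTTAAT. The windows of Sult2a1 (chr1:84638948-84639197, minus strand) and Sult2al1 (chr1:84097809-84098058, minus strand) were identical at 245 of 250 bases (98.0%), with the 5 differing bases in capitals below.
Sult2a1: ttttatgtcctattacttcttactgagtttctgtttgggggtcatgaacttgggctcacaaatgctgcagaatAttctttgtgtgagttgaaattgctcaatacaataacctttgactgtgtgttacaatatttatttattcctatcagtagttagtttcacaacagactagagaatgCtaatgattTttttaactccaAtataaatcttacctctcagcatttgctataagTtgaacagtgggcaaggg
Sult2al1: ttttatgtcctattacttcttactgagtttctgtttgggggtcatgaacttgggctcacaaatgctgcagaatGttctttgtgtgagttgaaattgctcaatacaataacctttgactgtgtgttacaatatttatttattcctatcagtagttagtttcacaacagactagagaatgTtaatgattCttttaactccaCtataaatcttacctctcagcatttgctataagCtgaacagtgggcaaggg
Both held TATAAA, and the Sult2al1 window alone held GTTAAT, at a place where 1 differing base breaks the match in Sult2a1.

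Around the conjugating enzymes, 6 lists of pathway genes were read in the same fit, and 17 of their 87 measured genes (19.5%) were called, against 11.1% of all genes. In the supply of UDP-glucuronate and the ascorbate synthesis that draws on it, 2 of 14 measured genes (14.3%) fell and none rose (list median -0.19), near the background of 11.1%. Rgn, the gluconolactonase of ascorbate synthesis, fell by 0.80 ± 0.11 (limma adjusted p = 0.00445), and Dcxr, the L-xylulose reductase that disposes of glucuronate, fell by 0.41 ± 0.08 (adjusted p = 0.0159). Gulo, the last enzyme of ascorbate synthesis, was at -0.45 ± 0.21 (adjusted p = 0.202), and Slc35d1, which carries UDP-glucuronate into the endoplasmic reticulum, at -0.12 ± 0.10 (adjusted p = 0.485).

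In sulfate uptake, PAPS transport and sulfate release, 3 of 13 measured genes (23.1%) fell and none rose (list median -0.14), where 6.56% of all genes fell. All 3 calls were lost without array 3 and 1 without control 3. The sulfate transporters Slc13a4 and Slc26a1 fell by 0.59 ± 0.08 (limma adjusted p = 0.00497) and by 0.55 ± 0.09 (adjusted p = 0.00760), each on all 4 arrays. The Slc13a4 probe was dim, well above background in 4 controls and 3 deficient animals. Tst, which transfers sulfur from thiosulfate to cyanide, fell by 1.03 ± 0.17 (adjusted p = 0.00775), with 0.01 on array 1. Bpnt1, which clears the PAP left by sulfation, was at -0.16 ± 0.11 (adjusted p = 0.369). Of 18 measured carbohydrate and tyrosine sulfotransferases and other users of these cofactors 2 (11.1%) were called, the same share as of all genes. They were Tpst1 (tyrosine sulfation), which fell by 0.51 ± 0.12 (adjusted p = 0.0313), and Ndst2 (heparan sulfate), which fell by 0.40 ± 0.10 (adjusted p = 0.0373). Neither was called without control 2, 3 or 4, deficient 1 or 4, or array 2 or 3, nor in the array-paired fit.

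Among 16 measured transporters of conjugates, 3 rose and 4 fell (43.8% called, against 11.1% of all genes, list median -0.08). The 7 calls became 0 in the array-paired fit or without array 3, 1 without control 3, 2 without control 1 or 2, deficient 4, or array 1 or 2, and 4 without deficient 1. Abcb1b, a P-glycoprotein, rose by 0.59 ± 0.08 (limma adjusted p = 0.00526), and Abcc5 and Abcc1, efflux pumps for organic anions, rose by 0.74 ± 0.18 (adjusted p = 0.0366) and 0.42 ± 0.11 (adjusted p = 0.0410). The uptake carriers Slco2b1 and Slco1a1 fell by 0.69 ± 0.12 (adjusted p = 0.00940) and 0.78 ± 0.15 (adjusted p = 0.0143), Abcc6 fell by 0.41 ± 0.10 (adjusted p = 0.0310) and Slc22a7 by 0.40 ± 0.11 (adjusted p = 0.0497). Abcc2 and Abcc3, the pumps that carry glucuronides into bile and back to blood, were at -0.10 ± 0.08 (adjusted p = 0.429) and -0.04 ± 0.11 (adjusted p = 0.852).

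Of 22 measured regulators of these enzymes 3 (13.6%) were called, near the background of 11.1%, and none of them in the array-paired fit or without array 3. Esrra rose by 0.47 ± 0.07 (limma adjusted p = 0.00687), Nr1h4, the bile acid receptor FXR, fell by 0.82 ± 0.15 (adjusted p = 0.0127) and Stat5a, of growth hormone signalling, fell by 0.45 ± 0.11 (adjusted p = 0.0317). The receptors best known for inducing Ugt and Sult genes were not called: Nr1i2 (PXR) was at -0.02 ± 0.08 (adjusted p = 0.905), Nr1i3 (CAR) at 0.01 ± 0.10 (adjusted p = 0.952) and Ahr at 0.07 ± 0.16 (adjusted p = 0.822). Nfe2l2 was at -0.42 ± 0.19 (adjusted p = 0.188). None of the 4 genes from heme to bilirubin was called by limma, and 1, the biliverdin reductase Blvra, had an unadjusted p under 0.05 (0.34 ± 0.11, adjusted p = 0.0816). The count of 17 fell to 1 without array 3, and was between 5 and 12 without control 1, 2 or 3, deficient 4, or array 1 or 2, and 28 or more without deficient 2 or array 4.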

How the data were processed

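RNA from 8 livers was hybridised to 4 Agilent 2-colour rat arrays, 1 control and 1 deficient animal on each. The authors deposited scanner files of spot intensities (software Agilent Feature Extraction 10.7.1.1, per the submitters' processing notes) and a table of intensities. How that table was normalized is not stated in the labels or headers, and it served as an alternative only. With limma 3.58.1 in R 4.3.3, spots with local background over 5 times the channel's median were left out (74 values), mean signals were corrected by normexp (offset 50), and normalized by loess and Aquantile. Outlier spots were left out, spots of a probe averaged, and probes kept if well above background in at least 4 of 8 samples. Probes with a missing value in any sample (96 on the array) were left out, and the brightest of the remaining probes stood for its gene. Diet was tested with lmFit and eBayes, with dye as a term and array as a random block (correlation 0.422), and Benjamini-Hochberg adjustment over 14873 genes at 0.05. Only the limma fit was also run on simulated data, made as finished log2 values, and the steps before it were not.

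Members keep the files' gene names. Promoters and current symbols are from RefSeq (GRCr8). Values are given for every called member and for the 6 uncalled members with the largest change, and up to 4 called genes of each list with the smallest p are named, beside a set of uncalled ones (Nr1i2, Nr1i3, Ahr, Nfe2l2, Abcc2, Abcc3, Gulo, Slc35d1 and Bpnt1). Abcc5, Abcc1, Slc22a7 and Blvra, the second Ugt2b37 probe and the promoter pair were chosen after their values were seen. The members and lists were chosen with earlier results of these data known. Alternatives changed background handling, normalization, filter, probe choice, sex, weights and the animals included.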

Additional observations from a re-analysis of the deposited data

Results flagged for a closer look

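Among 38 groups of 4 animals (19 genes in each diet group), 3 had an animal whose gap to its nearest neighbour, divided by the range of the group, was above Dixon's 95% critical value. Chance gives such a gap in about 1 in 20 groups. Sult1b1 in control 4 was at 11.29, with the next control at 12.35 (ratio 0.863). Sult1b1 in deficient 3 was at 12.97, with the next deficient animal at 14.31 (ratio 0.866). Sult1c2a in deficient 3 was at 11.16, with the next at 10.58 (ratio 0.835).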

How the results depend on the processing

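The count of members called higher (2) was 4 with sample weights and 0 with females only, and 0 to 3 when 1 animal or array was left out. The count called lower (5) was 2 with the spots in high local background kept and 3 with processed signals. With within-array ratios it was 0, and with no filter on background 2. It was 2 with sex as a term, 0 with females only, and 0 to 7 with 1 animal or array left out. Sult2a1, which is not among the 5, was 1 of the 2 with sex as a term. Without deficient 4 and without array 3, Sult2a1 was the only member called lower (count 1 in each). The 17 called list genes became 10 with processed signals, 4 with within-array ratios, 10 with sex as a term, 28 with sample weights, 0 with females only, and 1 to 30 with 1 animal or array left out (8 without array 2, 1 without array 3 and 28 without array 4). Over all genes, 1649 were called, against 954 with the spots kept, 1128 with processed signals, 467 with within-array ratios, 825 with sex as a term, 4025 with sample weights and 208 without array 3. Of 24 alternatives, the call was kept in 22 for Sult1b1, 18 for Ugt2a3, 17 for Sult2al1, 14 for Sult1c2a, 12 for Ugt1a9, 10 for Ugt2b36 and 7 for Ugdh, and none of these 7 changed sign. Signs turned for 5 uncalled members. Papss1 was 0.0755 with sample weights, -0.0659 to 0.0510 with 1 animal left out, 0.0163 without array 2 and 0.0280 without array 3. Sult1c2 was 0.0983 with the spots kept, -0.313 to 0.106 with 1 animal left out, 0.183 without array 2 and 0.0871 without array 3. Sult2a2 was 0.0858 with sample weights, -0.570 to 0.0180 with 1 animal left out and 0.124 without array 1. Ugt2b1 was 0.0829 without array 1. Ugt2b34 was 0.0266 with females only, -0.110 to 0.0518 with 1 animal left out, 0.0588 without array 1 and 0.0233 without array 4. The cause of these shifts was not tested. The within-array ratios are the paired fit, each array holding 1 animal of each group. Replicate numbers only follow the order of the samples and pair no animals. Dim probes limit what can be read, since 10 genes were not well above background in any sample.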
